A study of Mus musculus with 18 samples.

Results

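The dual-specificity MAP kinase phosphatases described here are 10 genes, Dusp1, Dusp2, Dusp3, Dusp4, Dusp5, Dusp6, Dusp7, Dusp8, Dusp10 and Dusp16. They were taken by gene symbol from 2 tables of RNA-seq values that each list 21441 genes, and all 10 were found in both. One table holds RAW264.7 cells, a macrophage-like mouse cell line, and the other holds livers of male C57BL/6 mice. Each table has 3 control, 3 LPS and 3 LPS+MIC-1 libraries. LPS is lipopolysaccharide, the outer membrane component of Gram-negative bacteria that activates macrophages through Toll-like receptor 4, and MIC-1 is moringa isothiocyanate-1, a compound from seeds of Moringa oleifera. The mice were wild type, received MIC-1 by gavage (80 mg/kg, in a DMSO vehicle) for 3 days or vehicle, and were then injected with LPS (10 mg/kg) or, as controls, with saline; livers were taken 16 h later. Each treatment arm had 6 mice, of which 3 livers per group are in the table, and their age was not given. The cultured cells received LPS with or without 10 µM MIC-1, and the controls received solvent. The sample labels repeat the mouse doses and strain for the cell samples, and the length of the cell treatment was not given. Nothing states whether the 3 libraries of a cell group came from separate cultures, so p-values there measure the spread between libraries, which may be technical.

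MAP kinases (ERK, JNK and p38) are switched on when a MAP2 kinase phosphorylates a threonine and a tyrosine in their activation loop, and dual-specificity phosphatases switch them off by removing both phosphates. Many of the phosphatase genes are themselves induced by MAP kinase signalling, so they act as feedback inhibitors of the pathway. In macrophages, Toll-like receptor signals activate all of the 3 MAP kinase branches, and Dusp1 is best known for limiting p38 activity and cytokine output after LPS. The genes fall into nuclear inducible enzymes (Dusp1, Dusp2, Dusp4 and Dusp5), cytoplasmic ERK-selective enzymes (Dusp6 and Dusp7), enzymes that prefer JNK and p38 (Dusp8, Dusp10 and Dusp16), and Dusp3, a small enzyme that lacks the MAP kinase binding domain of the others.

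RefSeq promoter sequences (GRCm38.p6) were at hand for 9 of the 10 genes, Dusp4 excepted, and the 250 bases before the start of each were searched on both strands. Dusp1 and Dusp8 are shown because they held the full cyclic AMP response element (CRE, TGACGTCA), Dusp5 because it had the widest range of group means in macrophages, and Dusp6 because, in macrophages, its level was below the controls in LPS libraries 1 and 3 and above them in every LPS+MIC-1 library. Dusp1 is at chr17:26508473-26508722 (minus strand), Dusp8 at chr7:142095285-142095534 (minus strand), Dusp5 at chr19:53528895-53529144 (plus strand) and Dusp6 at chr10:99262981-99263230 (plus strand), each printed 5′ to 3′ with the matched motifs in capitals.
Dusp1: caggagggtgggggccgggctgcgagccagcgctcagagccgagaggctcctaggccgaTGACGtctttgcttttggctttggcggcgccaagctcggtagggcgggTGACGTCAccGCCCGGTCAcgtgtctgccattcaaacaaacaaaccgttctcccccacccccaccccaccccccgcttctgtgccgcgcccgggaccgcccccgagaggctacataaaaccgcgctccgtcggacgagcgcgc
Dusp8: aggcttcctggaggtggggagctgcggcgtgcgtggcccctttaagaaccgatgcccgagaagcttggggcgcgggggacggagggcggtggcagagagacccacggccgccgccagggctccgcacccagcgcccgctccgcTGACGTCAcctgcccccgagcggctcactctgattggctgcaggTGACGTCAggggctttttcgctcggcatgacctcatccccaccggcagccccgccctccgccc
Dusp5: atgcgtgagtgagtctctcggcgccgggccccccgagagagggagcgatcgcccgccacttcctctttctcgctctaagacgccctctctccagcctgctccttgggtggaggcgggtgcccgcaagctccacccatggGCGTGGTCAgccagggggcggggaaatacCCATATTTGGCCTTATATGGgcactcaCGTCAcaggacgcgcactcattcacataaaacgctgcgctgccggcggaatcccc
Dusp6: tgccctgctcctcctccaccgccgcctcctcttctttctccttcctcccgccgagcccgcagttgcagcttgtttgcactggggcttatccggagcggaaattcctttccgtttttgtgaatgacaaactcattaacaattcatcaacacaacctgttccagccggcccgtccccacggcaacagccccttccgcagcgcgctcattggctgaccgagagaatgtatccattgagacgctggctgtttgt
The full CRE was in 2 of the 9 promoters, once in Dusp1 and in a pair of copies in Dusp8, and in 1.55% of all 32851 promoters of this length. Its half-site TGACG, which lies within the full element, was in 4 of the 9 (Dusp1, Dusp5, Dusp8 and Dusp16) and in 17.8% of all promoters. The CArG box, to which serum response factor binds, was in 1 of the 9: Dusp5 held 2 adjacent copies, starting 82 and 72 bases before the start, and 1.47% of all promoters held one. The core of the antioxidant response element, TGACNNNGC, was in Dusp1 and Dusp5 and in 10.2% of all promoters. The AP-1 motif TGANTCA and the NF-kB motif had 0 matches in the 9 windows, against 6.75% and 3.9% of all promoters. The Dusp6 window matched none of the 6 motifs searched. The member windows held 56.4 to 77.2% G and C, with a median of 68.4% against 52.4% over all promoters. A match is a description of these letters only.

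Depth was estimated from the steps between low FPKM values (fragments scaled for transcript length and library size) at 13.8 to 17.8 M reads per macrophage library and 3.62 to 15.7 M reads per liver library (M, 1e6), the 3 liver controls being the shallowest. Columns carry no replicate number, so libraries are numbered by their order within a group. One macrophage library labelled LPS, library 2, lay with the controls. Its correlation with control library 2 was 0.990, against 0.862 and 0.860 with LPS libraries 1 and 3, and Ccl5, a chemokine strongly induced by LPS, was at 115 FPKM in it, at 24673 and 25371 in the other LPS libraries and at 46.7 to 101 in the controls. The study used 8 macrophage libraries, 2 of them LPS, without naming the one left out, so macrophage results are given with all 9 libraries and without LPS library 2. Libraries 1 and 3 of every macrophage group were the closest pair of that group, so the comparisons without LPS library 2 rest on a close pair of LPS libraries. In liver, LPS library 2 also stood apart from LPS libraries 1 and 3. The macrophage receptor gene Csf1r was at 108 to 423 FPKM in the cells, and 10 hepatocyte markers summed to 3.25 to 16.1 FPKM in the cells and to 43161 to 85391 in liver. In the cells, 11 of 12 listed neutrophil markers were in the table and summed to 3.21 to 5.41 FPKM in the controls, 5.68 to 44.0 with LPS and 691 to 757 with LPS+MIC-1, nearly all of it S100a8, while S100a9 reached at most 0.482. Their part in the LPS+MIC-1 results was not tested.

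In macrophages, genes with a mean above 1 FPKM over the 9 libraries were tested, which took in 9 of the 10 members and left out Dusp8. Fold changes (Log2FC) are of FPKM + 0.5 and understate the change of low genes. A gene was called at an adjusted p below 0.01 and an absolute Log2FC above 1, the limits the study states for these cells.

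**Figure D1:**
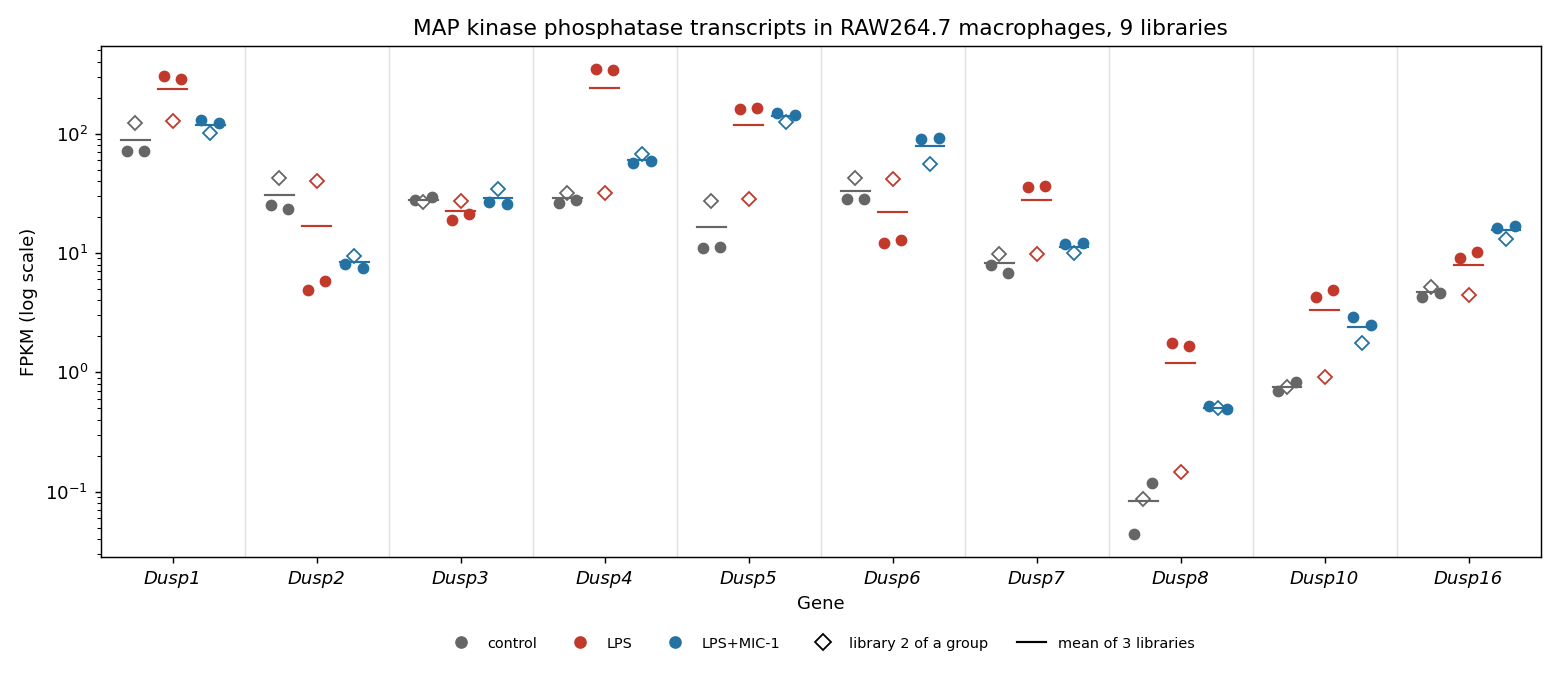
FPKM (log axis) of the 10 genes in the 9 macrophage libraries, 3 per group, with library 2 of each group as an open diamond and lines at the group means. LPS libraries 1 and 3 lie far from the controls for most genes, at 347 and 339 FPKM for Dusp4, while LPS library 2 lies at the control level, at 31.6 FPKM.

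Among the nuclear inducible enzymes, Dusp4, Dusp5 and Dusp1 were high in LPS libraries 1 and 3, while Dusp2 was low in them. Dusp4, at chr8:35870351-35882948 in the mm9 genome of the files and on the plus strand, stood at 26.1, 31.8 and 28.0 FPKM in the controls, 347, 31.6 and 339 under LPS, and 56.4, 66.9 and 58.7 under LPS+MIC-1. The LPS+MIC-1 libraries lay above all controls and well below LPS libraries 1 and 3. The Log2FC of LPS over control was 3.56 ± 0.10 (SE; adjusted p = 5.38e-07) without LPS library 2 and 2.42 ± 0.81 (adjusted p = 0.0777) with it. That of LPS+MIC-1 over LPS was -2.49 ± 0.10 (adjusted p = 2.72e-06) without LPS library 2 and -1.35 ± 0.81 (adjusted p = 0.252) with it.

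Dusp1 (mm9, chr17:26642535-26645464, minus strand), the immediate-early phosphatase that prefers p38 and JNK, stood at 71.7, 123 and 71.5 FPKM in the controls, 302, 127 and 287 under LPS, and 129, 100.2 and 122 under LPS+MIC-1. LPS libraries 1 and 3 were above all other libraries, and the LPS+MIC-1 libraries overlapped the controls. Its Log2FC without LPS library 2 was 1.77 ± 0.24 for LPS over control (adjusted p = 0.000253) and -1.33 ± 0.24 for LPS+MIC-1 over LPS (adjusted p = 0.00156). With all 9 libraries these were 1.37 ± 0.36 (adjusted p = 0.0777) and -0.93 ± 0.36 (adjusted p = 0.0970). LPS+MIC-1 over control was 0.44 ± 0.21 without LPS library 2, with a 95% interval from -0.05 to 0.93, and was not called.

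Dusp5 (mm9, chr19:53603599-53616921, plus strand), a nuclear phosphatase selective for ERK, behaved otherwise. It stood at 11.0, 27.3 and 11.2 FPKM in the controls, 161, 28.5 and 164 under LPS, and 149.5, 125 and 144 under LPS+MIC-1. All LPS+MIC-1 libraries were far above the controls and slightly below LPS libraries 1 and 3. With LPS library 2 left out, the Log2FC was 3.39 ± 0.35 for LPS over control (adjusted p = 6.28e-05) and 3.17 ± 0.31 for LPS+MIC-1 over control (adjusted p = 0.000102), and with all 9 it was 2.56 ± 0.66 (adjusted p = 0.0777) and 3.17 ± 0.66 (adjusted p = 0.0130). Between LPS+MIC-1 and LPS it was -0.22 ± 0.35 without LPS library 2 (adjusted p = 0.587), with a 95% interval from -1.04 to 0.59, which does not show that the groups are alike. With all 9 libraries the sign turned, to 0.61 ± 0.66 (adjusted p = 0.525).

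Dusp2 (mm9, chr2:127161895-127164112, plus strand), an inducible phosphatase of immune cells, moved the other way. It stood at 25.1, 42.8 and 23.5 FPKM in the controls, 4.86, 39.9 and 5.86 under LPS, and 8.05, 9.44 and 7.53 under LPS+MIC-1. All 3 LPS+MIC-1 libraries were below every control, and LPS libraries 1 and 3 were lower still. Without LPS library 2, the Log2FC was -2.35 ± 0.25 for LPS over control (adjusted p = 6.68e-05), -1.76 ± 0.22 for LPS+MIC-1 over control (adjusted p = 0.000317) and 0.59 ± 0.25 for LPS+MIC-1 over LPS (adjusted p = 0.0629). With all 9 libraries none of the 3 passed, the values being -1.42 ± 0.69, -1.76 ± 0.69 and -0.34 ± 0.69.

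The cytoplasmic ERK-selective pair split. Dusp6 (mm9, chr10:98725865-98730122, plus strand), the classical ERK feedback phosphatase, stood at 28.5, 42.3 and 28.5 FPKM in the controls, 12.2, 41.8 and 12.8 under LPS, and 90.0, 55.6 and 92.3 under LPS+MIC-1. Every LPS+MIC-1 library was above every control and every LPS library. Its Log2FC without LPS library 2 was -1.35 ± 0.25 for LPS over control (adjusted p = 0.00159), 2.58 ± 0.25 for LPS+MIC-1 over LPS (adjusted p = 6.73e-05) and 1.24 ± 0.22 for LPS+MIC-1 over control (adjusted p = 0.00210). With all 9 libraries the LPS+MIC-1 over LPS value was 2.02 ± 0.46 (adjusted p = 0.0207) and the other 2 values were -0.78 ± 0.46 and 1.24 ± 0.46, none of them called.

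Dusp7, at 7.91, 9.83 and 6.82 FPKM in the controls, was at 36.0, 9.85 and 36.7 under LPS and at 11.8, 9.96 and 12.2 under LPS+MIC-1. Its LPS+MIC-1 libraries lay just above the controls. Leaving out LPS library 2, the Log2FC was 2.10 ± 0.15 for LPS over control (adjusted p = 9.72e-06) and -1.65 ± 0.15 for LPS+MIC-1 over LPS (adjusted p = 4.81e-05). With all 9 these were 1.49 ± 0.45 (adjusted p = 0.0777) and -1.04 ± 0.45 (adjusted p = 0.135).

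Of the JNK and p38 enzymes, Dusp16 (mm9, chr6:134665488-134742643, minus strand), known for acting on JNK, was the one member called with all 9 macrophage libraries. It stood at 4.27, 5.18 and 4.60 FPKM in the controls, 9.00, 4.49 and 10.2 under LPS, and 16.3, 13.2 and 16.8 under LPS+MIC-1, so that every LPS+MIC-1 library exceeded every other library. LPS+MIC-1 over control was 1.62 ± 0.27 (adjusted p = 0.00576), and 1.62 ± 0.12 without LPS library 2 (adjusted p = 2.40e-05). With all other libraries kept, the call was lost on leaving out any 1 of the control or LPS+MIC-1 libraries, at 1.55 to 1.72 (adjusted p from 0.0159 to 0.0322). LPS over control was 0.97 ± 0.13 without LPS library 2 (adjusted p = 0.000262), just under the fold limit, and 0.63 ± 0.27 with it. LPS+MIC-1 over LPS was 0.65 ± 0.13 without it (adjusted p = 0.00278) and 0.99 ± 0.27 with it (adjusted p = 0.0386), neither called. With every library rescaled to the same FPKM sum, LPS over control was 0.04 ± 0.13 without LPS library 2 and -0.0094 ± 0.17 with it. LPS+MIC-1 over LPS was then called, at 1.41 ± 0.13 without LPS library 2 and 1.465 ± 0.17 with it. Such a rescaling shifts all genes and is described below.

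Dusp10, a phosphatase of p38 and JNK, stood at 0.696, 0.754 and 0.826 FPKM in the controls, 4.27, 0.915 and 4.86 under LPS, and 2.91, 1.75 and 2.48 under LPS+MIC-1. The LPS+MIC-1 libraries lay between the controls and LPS libraries 1 and 3, without overlap. All controls were below 1 FPKM, so Dusp10 passed the filter only through treated libraries, which favours a rise over control. Without LPS library 2, LPS over control was 2.01 ± 0.19 (adjusted p = 3.66e-05), LPS+MIC-1 over control was 1.18 ± 0.17 (adjusted p = 0.000619) and LPS+MIC-1 over LPS was -0.83 ± 0.19 (adjusted p = 0.00511), the last under the fold limit. With all 9 none of the 3 was called (1.40 ± 0.47, 1.18 ± 0.47 and -0.22 ± 0.47).

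Dusp8, a JNK and p38 phosphatase best known from brain and heart, was under the filter. It stood at 0.0444, 0.0866 and 0.118 FPKM in the controls, 1.76, 0.146 and 1.68 under LPS, and 0.521, 0.501 and 0.495 under LPS+MIC-1. In reads this was an estimated 4.96 to 12.8 per control library, 112, 14.7 and 115 with LPS and 38.7 to 49.0 with LPS+MIC-1. An exact permutation test on log2(FPKM + 0.5), two-sided, gave p = 0.1 for LPS and for LPS+MIC-1 over control, which is the smallest p that 3 against 3 libraries allow. Dusp3 varied least, at 26.8 to 29.2 FPKM in the controls, 18.8, 27.1 and 21.1 with LPS and 25.5 to 34.5 with LPS+MIC-1. Its Log2FC was -0.48 ± 0.13 for LPS over control (adjusted p = 0.0107) and 0.51 ± 0.13 for LPS+MIC-1 over LPS (adjusted p = 0.00911) without LPS library 2, and -0.34 ± 0.17 and 0.37 ± 0.17 with it, and no comparison was called.

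Counted together, LPS against control called 0 of the 9 tested members and 0% of the 9905 genes by limma with all 9 macrophage libraries, although 5 of the 9 members and 4928 genes had an unadjusted p below 0.05. Without LPS library 2 it called 7 of the 9 members (5 higher, 2 lower) against 34.2% of all genes (16.3% higher and 17.9% lower). The comparison of LPS+MIC-1 with LPS called 0 of 9 members with all 9 libraries against 3.87% of genes. An unadjusted p below 0.05 was found there for 3 of the 9 members and for 3740 of the 9905 genes. Without LPS library 2, 4 of 9 were called, 3 lower and 1 higher, against 23.3% of genes (12% lower and 11.3% higher). When LPS+MIC-1 was set against control, the counts were 1 of 9, higher, against 5.59% of genes (3.27% higher), and 6 of 9 without LPS library 2, 5 higher and 1 lower, against 15.7% (7.55% higher and 8.2% lower). The median Log2FC of the tested members without LPS library 2 was 1.77, -0.22 and 1.07 in the 3 comparisons, against -0.02, 0.01 and -0.04 over all tested genes. The comparisons share libraries, since each group enters a pair of them. Dusp10, counted as higher than control without LPS library 2, passed the filter only through treated libraries.

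**Figure D2:**
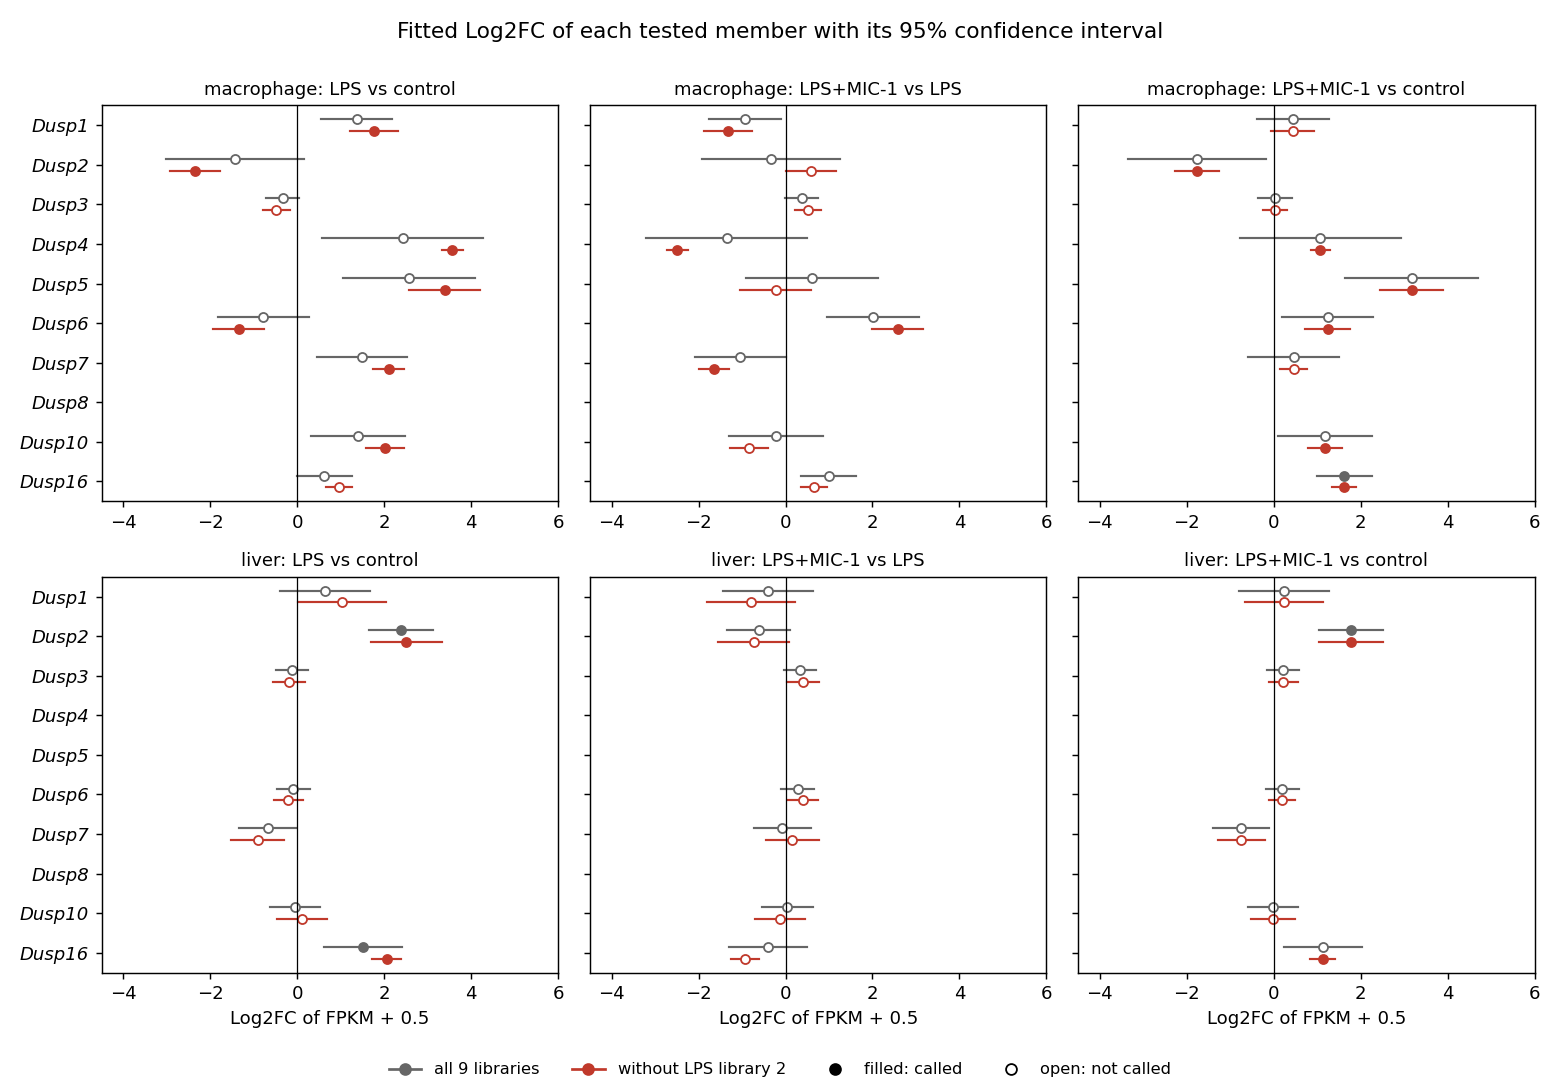
Fitted Log2FC (x axis) of each tested member with its 95% confidence interval, for 3 comparisons in macrophages (top) and liver (bottom), with all 9 libraries in grey and without LPS library 2 in red; filled points were called. In macrophages without LPS library 2, Dusp4 lies at 3.56 with LPS and at -2.49 for LPS+MIC-1 over LPS, while Dusp6 lies at -1.35 and 2.58.

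A rescaling of every library to the same FPKM sum shifted the median Log2FC of all genes without LPS library 2 to -0.93 for LPS over control and to 0.74 for LPS+MIC-1 over LPS, where the FPKM of LPS libraries 1 and 3 had summed to 1.14 and 1.13 M, against 0.557 to 0.652 M in the other 7 macrophage libraries. Under it, Dusp4 (2.58 and -1.69) and Dusp6 (-2.30 and 3.36) stayed called in both comparisons with their directions. Dusp1 did not stay called in either (0.78 and -0.53), Dusp7 stayed called only with LPS (1.14 and -0.86), and Dusp5 turned sign, uncalled, in the second (2.42 and 0.58). Relative to the shifted medians, Dusp1 stood at 1.71 and -1.27. The calls under this rescaling were 4 higher and 3 lower for LPS over control, against 5.02% of all genes higher and 46.2% lower. For LPS+MIC-1 over LPS they were 4 higher and 1 lower, against 36.4% of all genes higher and 2.72% lower, so that the 4 of 9 higher lay near the share of all genes. Here Dusp16 (1.41), Dusp2 (1.32) and Dusp3 (1.30) joined Dusp6.

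The summed level of the 10 genes was 203 to 310 FPKM in the macrophage controls, 897, 311 and 883 with LPS and 417 to 492 with LPS+MIC-1. Dusp1 made up the largest share of it in the controls (35.0 to 39.8%) and Dusp4 in LPS libraries 1 and 3 (38.6 and 38.4%). Dusp5 led under LPS+MIC-1 with 29.9 to 30.4%. In the controls the order of levels was Dusp1, then Dusp6, Dusp2, Dusp4, Dusp3 and Dusp5, neighbours among these last 5 overlapping in range, then Dusp7, Dusp16, Dusp10 and Dusp8, each below all libraries of the one before. FPKM values are per length of transcript, so these levels compare between genes.

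**Figure D3:**
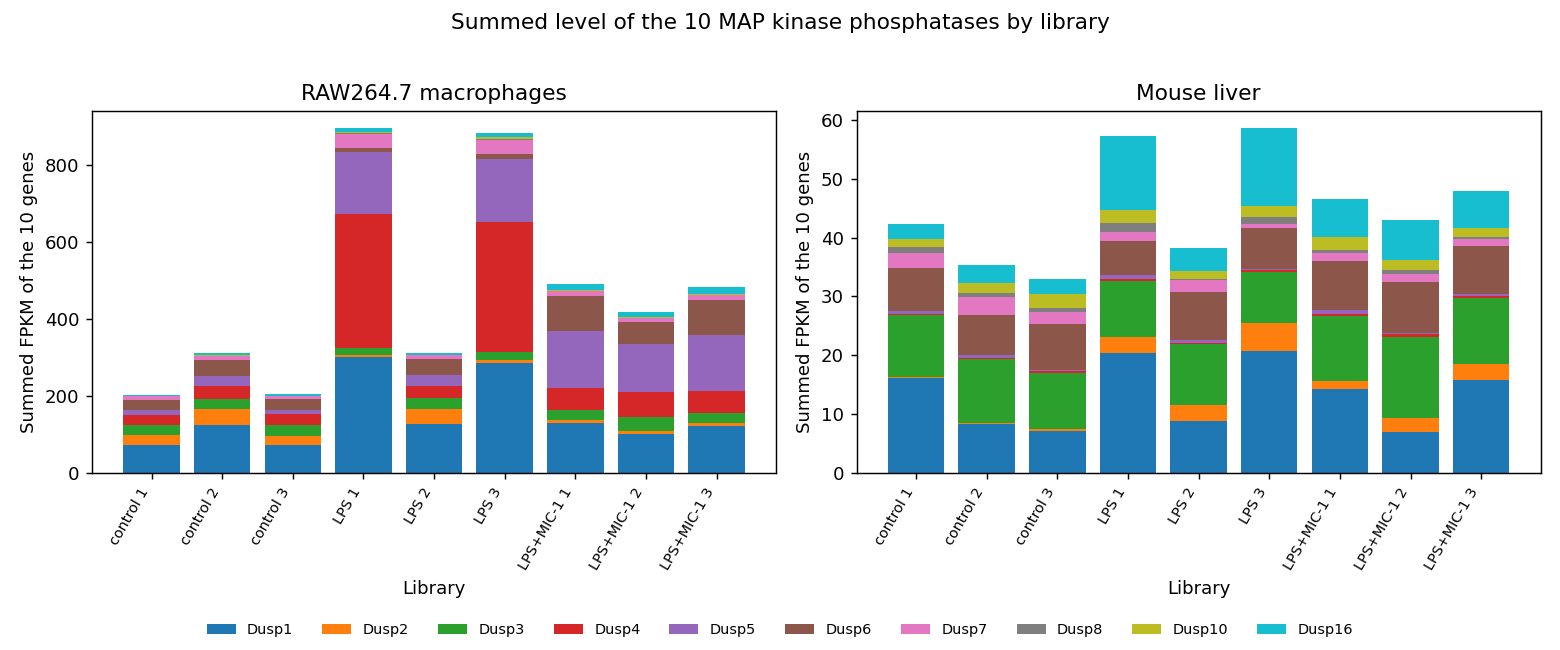
Summed FPKM of the 10 genes in each library, stacked by gene, for macrophages (left) and liver (right, another axis range). Dusp4 takes the largest part in LPS libraries 1 and 3 of the macrophages, where the sum reached 897 and 883 FPKM, and the liver sums lie between 33.0 and 58.6 FPKM.

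The liver held far less of these transcripts, 33.0 to 42.4 FPKM summed in the controls, 38.2 to 58.6 with LPS and 43.1 to 48.0 with LPS+MIC-1. Dusp1, Dusp3 and Dusp6 were the leading genes in the controls, and Dusp4 and Dusp5, prominent in the macrophages, stayed below 1 FPKM in every liver library. The test took in 7 of the 10 members, without Dusp4, Dusp5 and Dusp8. Genes were called here at an adjusted p below 0.05 and an absolute Log2FC above 1. Liver is a mixture, so more RNA per cell and more cells of a type cannot be told apart.

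Dusp2 rose most. It stood at 0.134, 0.238 and 0.349 FPKM in the controls, 2.76, 2.76 and 4.83 under LPS, and 1.27, 2.24 and 2.78 under LPS+MIC-1. All 6 treated livers were above all 3 controls, and the treated groups overlapped. Dusp2 averaged 0.240 FPKM in the controls and 1.93 over the 9 livers, so it passed the filter only through the treated livers. A gene this low in the controls is tested only if it rises, so its call is partly fixed by the filter. The Log2FC was 2.39 ± 0.32 for LPS over control (adjusted p = 0.00232) and 1.77 ± 0.32 for LPS+MIC-1 over control (adjusted p = 0.00529), and both stayed called without LPS library 2. The control values rest on an estimated 1.99, 1.99 and 2.97 reads, against 47.0 to 112 per LPS library, and the ratio of the summed reads per depth was 15.9, with an exact 95% interval for counting error alone from 7.58 to 40.0. LPS+MIC-1 over LPS was -0.61 ± 0.32 (adjusted p = 0.997). Neutrophil markers moved with the same groups: 11 of 12 listed genes were in the table, their sum was 37.7 to 53.1 FPKM in the controls, 354 to 451 with LPS and 193 to 465 with LPS+MIC-1, and of the 8 tested, 7 rose and 1 fell with LPS. The macrophage markers moved too. Of these, 8 of 10 listed genes were in the table, their sum was 37.3 to 56.7 FPKM in the controls, 678, 168 and 654 with LPS and 164 to 470.0 with LPS+MIC-1, and of the 6 tested, 3 rose and 0 fell with LPS. Most of the LPS sum was Cd14, at 569, 84.2 and 552 FPKM, while Csf1r was at 3.49 to 7.32 in the controls and 5.49 to 8.73 with LPS, and Ptprc, the pan-leukocyte gene, was at 0 in all 3 controls and in 2 of the 3 LPS livers. The 5 listed markers of Kupffer cells, the resident macrophages of liver, summed to 29.2 to 51.0 FPKM in the controls, 36.9 to 53.9 with LPS and 50.9 to 96.1 with LPS+MIC-1. Of these 5, all tested, 1 rose and 2 fell with LPS. The part of these marker lists in the Dusp2 result was not tested.

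Dusp16 was the other member called with LPS. It stood at 2.64, 2.99 and 2.63 FPKM in the controls, 12.7, 3.93 and 13.3 under LPS, and 6.59, 6.82 and 6.34 under LPS+MIC-1. Each treated liver exceeded each control, and LPS library 2 was below the LPS+MIC-1 livers while the other LPS livers were above them. In the macrophage marker sum above, LPS library 2 was also the lowest of the LPS livers. The part of those markers in the Dusp16 result was not tested. LPS over control was 1.52 ± 0.39 (adjusted p = 0.0203) and, without LPS library 2, 2.05 ± 0.14 (adjusted p = 0.000254). The call was lost without control library 2 (1.57, adjusted p = 0.0535), control library 3 (1.49, adjusted p = 0.0614), LPS library 1 (1.27, adjusted p = 0.0748) or LPS library 3 (1.23, adjusted p = 0.0801). LPS+MIC-1 over control was 1.12 ± 0.39 (adjusted p = 0.0529) with all 9 libraries and 1.12 ± 0.12 (adjusted p = 0.00100) without LPS library 2, which called it. LPS+MIC-1 over LPS was -0.39 ± 0.39 (adjusted p = 0.997) and, without LPS library 2, -0.93 ± 0.14 (adjusted p = 0.0520).

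The remaining liver members gave no call with the deposited scaling. Dusp7 stood at 2.61, 3.03 and 2.18 FPKM in the controls, 1.57, 2.14 and 0.807 under LPS and 1.40, 1.45 and 1.17 under LPS+MIC-1, all 6 treated livers being below the controls. Its Log2FC was -0.68 ± 0.29 with LPS (adjusted p = 0.0916) and -0.75 ± 0.29 with LPS+MIC-1 (adjusted p = 0.0690). With every library rescaled to the same sum, which moved the median of all genes to -0.18, -0.26 and -0.43 in the 3 liver comparisons, Dusp7 was called for LPS+MIC-1 over control at -1.27 (adjusted p = 0.0119), against 30.7% of all genes called (25.5% lower). For LPS over control it was at -0.99 (adjusted p = 0.0366), just under the fold limit, and without LPS library 2 it was called at -1.21 (adjusted p = 0.0145), against 21.8% of all genes lower. Dusp16 was not called for LPS+MIC-1 over control after rescaling, at 0.54 without LPS library 2 (adjusted p = 0.0309).

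Dusp1 varied within each liver group, at 16.2, 8.20 and 7.07 FPKM in the controls, 20.4, 8.73 and 20.7 under LPS and 14.3, 6.99 and 15.7 under LPS+MIC-1. The groups overlapped, and the Log2FC of 0.63 ± 0.45 for LPS over control was not called (adjusted p = 0.295), nor was 1.03 ± 0.43 without LPS library 2 (adjusted p = 0.0844). Dusp3 stayed at 8.54 to 13.9 FPKM, Dusp6 at 5.73 to 8.71 and Dusp10 at 1.28 to 2.35 over the 9 livers. Under the filter, Dusp4 ranged from 0.154 to 0.447 FPKM, Dusp5 from 0.128 to 0.725 and Dusp8 from 0.203 to 1.62, an estimated 2.28 to 18.3 reads per library for Dusp4.

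In counts, LPS over control called 2 of the 7 tested members in liver, both higher, against 24.6% of the 10147 genes (13.4% higher). LPS+MIC-1 over LPS called 0 of 7 against 0% of genes by limma, where 364 genes and 0 members had an unadjusted p below 0.05, and LPS+MIC-1 over control called 1 of 7, higher, against 25.2% (13.8% higher). Without LPS library 2 the counts were 2 of 7, both higher, against 34.6% (19% higher), 0 of 7 against 0.345% and 2 of 7 against 27.7% (15.3% higher). Dusp2, which entered the test only through the treated livers, was among the called members wherever any was called. The median Log2FC of the tested members was -0.06, -0.07 and 0.22 against 0.15, -0.01 and 0.15 over all genes.

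**Figure D4:**
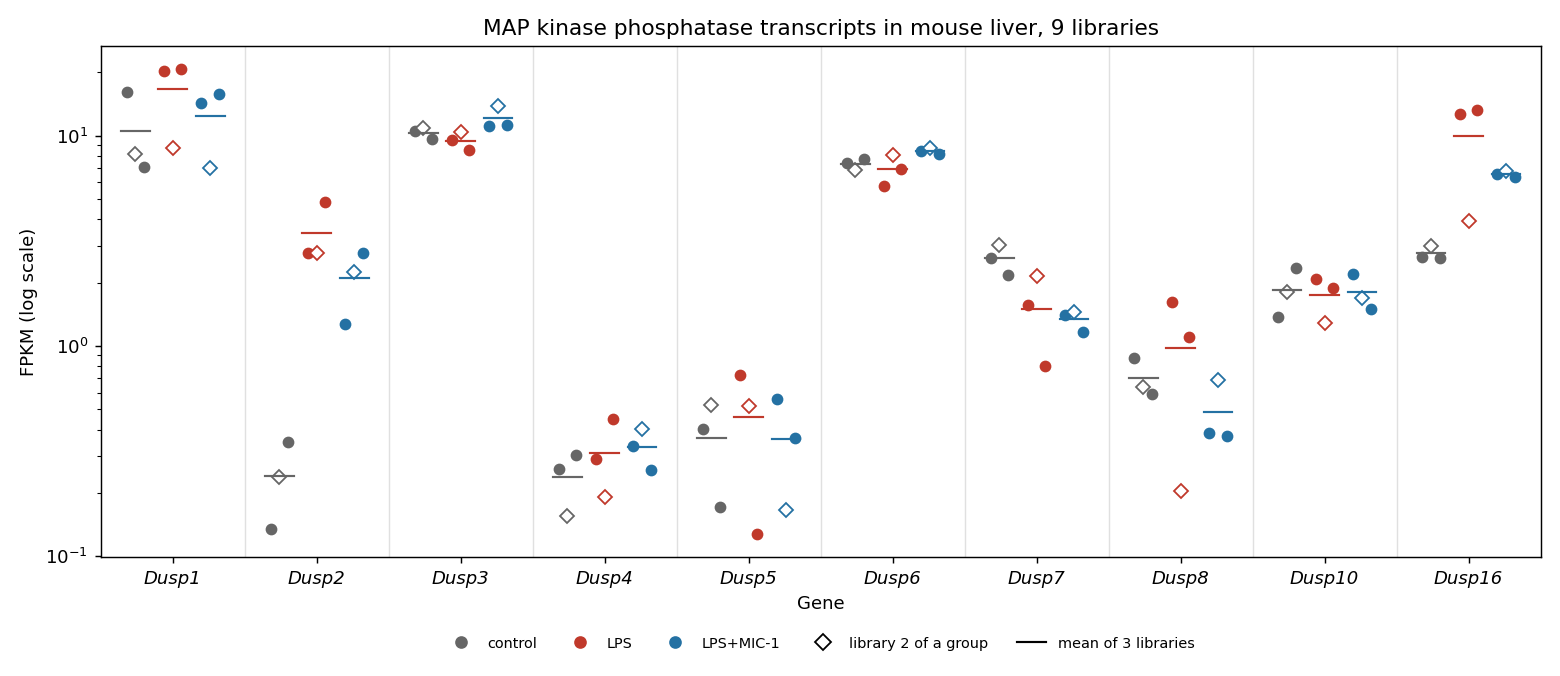
FPKM (log axis) of the 10 genes in the 9 livers, 3 per group, drawn as for the macrophages. Dusp2 lies at 0.134 to 0.349 FPKM in the controls and 1.27 to 4.83 in the treated livers, and Dusp16 at 2.63 to 2.99 and 3.93 to 13.3.

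Among 65 other tested genes of the pathway, in 7 lists, LPS over control called 0 in macrophages with all 9 libraries (0% of all genes). LPS+MIC-1 over LPS called 4, all higher, against 3.87% of all genes (2.06% higher). Without LPS library 2, LPS over control called 14 (10 higher, 4 lower), against 34.2% of all genes (16.3% higher and 17.9% lower). LPS+MIC-1 over LPS called 18 (9 higher, 9 lower), against 23.3% (11.3% higher and 12% lower). The first count lay below the share of all genes and the second near it. The directions depended on the scaling. With the libraries rescaled to the same sum and LPS library 2 left out, 30 were called for LPS over control, 5 higher and 25 lower, against 5.02% and 46.2% of all genes, and 25 for LPS+MIC-1 over LPS, 25 higher and 0 lower, against 36.4% and 2.72%.

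Mapk3, which encodes ERK1, and Map3k8, the kinase that links Toll-like receptors to ERK, were called in both comparisons in opposite directions without LPS library 2. Mapk3 was at 2.12 ± 0.12 for LPS over control and -1.53 ± 0.12 for LPS+MIC-1 over LPS, and with all 9 libraries at 1.52 ± 0.44 and -0.92 ± 0.44, uncalled. Map3k8 was at 1.15 ± 0.12 and -1.32 ± 0.12, and with all 9 at 0.80 ± 0.28 and -0.96 ± 0.28, uncalled. After rescaling without LPS library 2, Mapk3 was called with LPS alone (1.13, then -0.72) and Map3k8 in neither (0.25 and -0.59). Of 8 tested dual-specificity phosphatases outside the members, 1 was called higher and 2 lower with LPS without LPS library 2, against 16.3% and 17.9% of all genes. The higher one, Dusp14, was at 4.23 ± 0.19 for LPS over control and at -1.08 ± 0.19 for LPS+MIC-1 over LPS (3.31 and -0.29 after rescaling, the second not called). Dusp14 stood at 2.94 ± 0.92 and 0.21 ± 0.92 with all 9 libraries, uncalled and with the second sign turned.

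Of 6 tested feedback inhibitors of ERK signalling, 5 were called higher for LPS+MIC-1 over LPS without LPS library 2, against 11.3% of all genes higher. Among them were Spred1 (1.69 ± 0.11), Spred3 (1.23 ± 0.25), Ptpn7 (1.19 ± 0.11) and Spry2 (1.12 ± 0.21). Only 1 of the 6 was called with all 9 libraries, Spred3 (1.36 ± 0.25), and Spred1, Ptpn7 and Spry2 stood at 1.13 ± 0.41, 0.70 ± 0.37 and 0.90 ± 0.26. The median of the 6 was 1.16 without LPS library 2 and 0.83 with it, against 0.01 and -0.01 over all genes, and after rescaling without LPS library 2 it was 1.86 against 0.74, with 5 higher against 36.4% of all genes. For LPS over control, 2 of the 6 were called lower without LPS library 2, Spred1 (-1.89 ± 0.11) and Ptpn7 (-1.72 ± 0.11), against 17.9% of all genes lower. The count was 0 with all 9 libraries, and after rescaling without LPS library 2, 4 were lower against 46.2% of all genes.

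Of 16 tested transcription factors that respond to MAP kinases, 4 were called higher and 0 lower with LPS without LPS library 2 (Myc, Atf3, Jund and Jun), against 16.3% of all genes higher, and 0 with all 9 libraries. After rescaling without LPS library 2 these counts were 3 higher and 7 lower, against 5.02% and 46.2% of all genes. For LPS+MIC-1 over LPS 2 were called higher and 4 lower without LPS library 2, against 11.3% and 12%, and 7 higher and 0 lower after rescaling, against 36.4% and 2.72%. Fosl1, an ERK-responsive AP-1 subunit, was called higher for LPS+MIC-1 over LPS with all 9 libraries (3.20 ± 0.31) and without LPS library 2 (3.53 ± 0.22). Of 6 MAP2 kinases tested, 0 were called in any macrophage comparison with the deposited scaling. The shares of all genes were 0%, 3.87% and 5.59% with all 9 libraries and 34.2%, 23.3% and 15.7% without LPS library 2. After rescaling without LPS library 2, 2 of the 6 were called lower for LPS over control, against 46.2% of all genes. For LPS+MIC-1 over LPS, 1 was called higher, against 36.4%.

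In liver, LPS over control called 9 of 57 tested pathway genes with all 9 libraries, 7 higher and 2 lower. Of all genes 24.6% were called (13.4% higher and 11.2% lower). Without LPS library 2 it called 15, 11 higher and 4 lower, against 34.6% (19% higher and 15.6% lower). After rescaling the counts turned to 2 higher and 4 lower with all 9 libraries, against 7.85% and 18.2% of all genes. The MAP kinase genes called included Mapk13 (1.79 ± 0.57) and Mapk14, which encodes p38 alpha (1.13 ± 0.22), both higher, and Mapk15 (-4.26 ± 0.66), lower. Of the ERK feedback inhibitors 1 of 4 was called, Spry2, at -1.14 ± 0.30, against 11.2% of all genes lower. Without LPS library 2, Ptpn7 (-1.64 ± 0.45) was called beside it, against 15.6% lower. Of 10 responsive transcription factors 2 were called, both higher, Junb (2.22 ± 0.42) and Fosl2 (1.12 ± 0.23), against 13.4% of all genes higher. Without LPS library 2, Egr1 (1.57 ± 0.18) and Srf (1.19 ± 0.26) made it 4, against 19% higher. After rescaling with all 9 libraries Mapk15 (-4.63), Spry2 (-1.44) and Junb (1.87) were called and Mapk13 (1.62), Mapk14 (0.79) and Fosl2 (0.83) were not. LPS+MIC-1 over LPS called 0 of these pathway genes in liver with all 9 libraries, against 0% of all genes. Without LPS library 2 it called 1, lower, against 0.345% of all genes (0.148% lower).

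Genes with the pattern most like that of Dusp1 over the 9 macrophage libraries, by Pearson correlation of log2(FPKM + 0.5), were Ppm1j (r = 0.993), Srgap3 (r = 0.992) and Reep5 (r = 0.990). Those most like Dusp5, the member with the widest range of group means, were Serpinb6a (r = 0.999), Ebi3 (r = 0.998) and Ptgir (r = 0.997). Among members, Dusp7 (r = 0.970) and Dusp4 (r = 0.920) were closest to Dusp1, and Dusp10 (r = 0.904) and Dusp16 (r = 0.896) to Dusp5. In liver the genes most like Dusp1 were St3gal1 (r = 0.983), Akt1s1 (r = 0.975) and Snord89 (r = 0.972), and those most like Dusp2 were Pla2g7 (r = 0.974), Rgs4 (r = 0.971) and Rps6ka4 (r = 0.971). These are descriptions over 9 libraries that share their groups, and in the macrophages they share the split of LPS library 2 from the other LPS libraries. In liver, Dusp1 and the genes most like it shared a split within the groups. Library 1 was the highest control, and library 2 was the lowest of the LPS and of the LPS+MIC-1 livers.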

How the data were processed

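RNA-seq libraries of RAW264.7 cells and mouse liver, 3 per group and 18 in all, were deposited as 2 tables of FPKM values. The authors made the FPKM values by pseudo-aligning reads with Kallisto 0.45.0 to a RefSeq mm9 index, importing them with tximport and scaling with DESeq2 1.20.0. FPKM already divides by size factors, so a library's sum is not its depth, and a different scaling shifts every gene of a comparison together. Also deposited were comparison tables (DESeq2 base mean, log2 fold change, standard error, Wald statistic, p and adjusted p), which hold the study's own findings and were not used. No value columns (0) were left unmatched to a group, but columns carry no replicate number.

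Fold changes were fitted with limma 3.58.1 in R 4.3.3 on log2(FPKM + 0.5), for genes with mean FPKM above 1, the 3 groups of a table in 1 fit with a mean-variance trend, and p-values adjusted by Benjamini-Hochberg over all genes tested in a comparison. The 2 tables were normalized separately and were tested separately. The scripts were tested on simulated data. Genes under the filter had an exact permutation test. Depth was estimated from the steps of low FPKM values, of which 78.4 to 84.5% lay within 0.1 of a whole read, so that reads given for a gene are estimates. The number of libraries and, for low genes, these read counts limit the precision.

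The genes and lists were chosen with earlier results of these data known. All 10 genes are described, the pathway genes named are up to 4 per list with the largest Log2FC among those called (1 MAP kinase result in liver is not reported here), and the genes of like pattern are the 3 with the highest correlation to Dusp1 and to the member with the widest range of group means. Alternatives were other pseudocounts, filters, scalings, groups in the fit and libraries left out.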

Additional observations from a re-analysis of the deposited data

Results flagged for a closer look

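With all 9 libraries of each table, 2 genes had treated libraries that all lay on one side of the controls in the cells and on the other side in the liver under the same contrast. The difference between cells and liver was not tested, since the tables were normalized separately. How many of all genes did so was not counted, so these 2 are not shown to be unusual. For LPS+MIC-1 over control, the groups did not overlap for 7 of 9 tested members in macrophages and 5 of 7 in liver. The share of all genes without overlap was not counted, so these counts do not set the members apart. Among them, Dusp10 in macrophages and Dusp2 in liver passed the filter only through treated libraries. Dusp2 stood at a Log2FC of -1.76 for LPS+MIC-1 over control in macrophages, where each of the 3 treated libraries was below all controls, and at 1.77 in liver, where each was above. Dusp7 stood at 1.49 for LPS over control in macrophages and -0.68 in liver. For LPS+MIC-1 over control, Dusp7 stood at 0.45 in macrophages and -0.75 in liver. For Dusp7 the macrophage groups were barely apart, since LPS library 2 (9.85 FPKM) and LPS+MIC-1 library 2 (9.96 FPKM) were at the level of control library 2 (9.83 FPKM). Of these 6 values, 1 was called with all 9 libraries, that of Dusp2 in liver. Groups of 3 libraries were not examined for single outlying values.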

How the results depend on the processing

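With all 9 libraries, the counts of members called were 0, 0 and 1 in macrophages and 2, 0 and 1 in liver (LPS over control, LPS+MIC-1 over LPS, LPS+MIC-1 over control). Leaving out 1 library at a time gave 0 to 7, 0 to 4 and 0 to 6 in macrophages, the highest each time without LPS library 2. The share of all genes called ranged there from 0 to 34.2%, 1.1 to 23.3% and 1.42 to 15.7%. In liver it gave 1 to 2, 0 to 0 and 1 to 2, against 12.1 to 34.6%, 0 to 0.345% and 17.2 to 30.7% of all genes. Rescaling to the same sum gave 1 for LPS+MIC-1 over LPS (3.46% of all genes) and 2 for LPS+MIC-1 over control (3.81%) in macrophages, and 2 for LPS+MIC-1 over control in liver (30.7%). Fitting only the 2 groups compared gave 6 for LPS+MIC-1 over control in macrophages (15.6% of all genes), 1 for LPS over control in liver (19.4%) and 2 for LPS+MIC-1 over control in liver (26%). Averaging the closest libraries gave 0 for LPS+MIC-1 over control in macrophages (0% of all genes), 1 for LPS over control in liver (1.49%) and 0 for LPS+MIC-1 over control in liver (1.58%). A pseudocount of 0.1 gave 2 for LPS+MIC-1 over control in liver (26.9% of all genes). Together with leaving out LPS library 2 in macrophages, rescaling gave 7, 5 and 5 (51.2%, 39.1% and 17.4% of all genes), averaging the closest control and LPS+MIC-1 libraries gave 7, 4 and 4 (32.6%, 22.3% and 12.7%), and no filter gave 8, 5 and 6 (21.7%, 14.5% and 9.92%). In liver without LPS library 2, LPS+MIC-1 over control gave 2 with rescaling (32.3%) and 2 with no filter (16.9%). The no-filter fits without LPS library 2, the liver averaging and the liver rescaling without LPS library 2 were chosen after seeing the data. Over all alternatives, 14 of 60 counts in liver and 22 of 63 in macrophages moved by over 1.5 times, and 369 of 408 and 450 of 543 member fold changes kept their direction and side of the threshold; for the rest the cause was not tested.

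Of the 40 fold changes that changed sign, 1 was called in either setting, Dusp2 at 1.32 for LPS+MIC-1 over LPS in macrophages after rescaling without LPS library 2. In macrophages under LPS+MIC-1 over LPS, Dusp2 also turned to 0.11 on rescaling, and without LPS library 2 to 0.64 with averaging and 0.59 with no filter. Dusp5 turned to -0.26 with averaging and -0.22 with no filter, both without LPS library 2, and Dusp10 to 0.23 on rescaling and 0.0016 with averaging. Dusp16 under LPS over control turned to -0.0094 on rescaling, and Dusp3 under LPS+MIC-1 over control to -0.15 with or without LPS library 2. In liver, LPS over control turned Dusp10 to 0.10 with no filter and without LPS library 2. Under LPS+MIC-1 over LPS, no filter without LPS library 2 turned Dusp4 to -0.060, Dusp7 to 0.16 and Dusp10 to -0.12, and rescaling turned Dusp10 to -0.18, or -0.35 without LPS library 2. Under LPS+MIC-1 over control, rescaling turned Dusp1 to -0.39, Dusp3 to -0.41 and Dusp6 to -0.42, each the same without LPS library 2, and averaging turned Dusp1 to -0.11 and Dusp10 to 0.049. Leaving out 1 library, values that changed sign in macrophages ranged from -0.86 to 0.59 (Dusp2), -0.22 to 1.03 (Dusp5) and -0.83 to 0.13 (Dusp10) for LPS+MIC-1 over LPS and -0.10 to 0.11 (Dusp3) for LPS+MIC-1 over control. In liver they ranged from -0.20 to 0.032 (Dusp6) and -0.20 to 0.10 (Dusp10) for LPS over control, -0.35 to 0.16 (Dusp7) and -0.12 to 0.15 (Dusp10) for LPS+MIC-1 over LPS, and -0.16 to 0.14 (Dusp10) for LPS+MIC-1 over control.

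No paired analysis was possible because the columns of the tables carry no replicate numbers. Depth limits Dusp2, Dusp4, Dusp5 and Dusp8 in liver and Dusp8 in the control cells, which rest on few reads.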
